A study of Mus musculus with 2 samples.

Results

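Cornified-rich spots are the spots of mouse skin sections in which transcripts of the outermost living epidermis prevail. They were chosen by 3 criteria: at least 1000 unique molecular identifiers (UMIs, counted transcript molecules), *Krt5*, *Krt14* and *Lor* together at 3% or more of those UMIs, and *Lor* at least equal to *Krt5* plus *Krt14*. The rule took 189 of 3175 spots over tissue (5.95%), and 501 further spots that met the first 2 criteria but had less *Lor* served as the comparison and are called basal-rich. A spot covers several cells, so neither name stands for a cell type. *Lor* encodes loricrin, the main protein of the cornified envelope, while *Krt5* and *Krt14* encode the keratin pair of the basal layer.

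The skin came from female SKH-1 mice, a hairless strain, aged 10 to 12 weeks, and was profiled with probe-based Visium libraries, one section per group. The sections were skin exposed to ultraviolet radiation (UVR) and given 0.03% 9-cis HPR, UVR skin given 0.1% retinol, UVR skin without a retinoid, and normal control skin; the sources used here give neither the radiation dose nor the number of animals per section. Counts of cornified-rich spots were 53 in the 9-cis HPR section, 41 in the retinol section, 35 in the UVR section and 60 in the control section. Summed UMIs over these spots were 256891 with 9-cis HPR, 176851 with retinol, 283967 in UVR skin and 141491 in control skin. Spots of the UVR section were the deepest, with a median of 6936 UMIs, against 4511 with 9-cis HPR, 3687 with retinol and 1869 in control skin.

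Limits of the design precede every result below. With 1 section per group the spread between animals could not be measured, so no test between groups was possible and every interval covers counting error only. Both treated sections lay on 1 capture area, and the UVR and control sections on the other, so an effect of treatment and one of the capture area cannot be told apart. The labels place sections as upper or lower, which was taken from the image, with smaller pixel rows counted as upper. Rows of the spot grid are numbered in the other direction, and going by them would exchange the 2 sections of each area and turn every difference between them round. Under that reading *Krt6b* would be 110.7-fold higher in control skin than in UVR skin.

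The epidermis renews itself from basal keratinocytes, which stop dividing, move outward and switch from *Krt5* and *Krt14* to *Krt1* and *Krt10*. In the outermost living layers the cells make loricrin, filaggrin and small proline-rich proteins, which transglutaminases crosslink beneath the membrane into the cornified envelope, and corneodesmosomes hold the dead cells together until they are shed. Keratins 6, 16 and 17 are known as keratins of wounded or overgrowing epidermis. Retinoids are known to act through nuclear receptors and to alter keratinocyte differentiation.

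The promoters of *Sprr1a* and *Sprr1b*, both among the highest ratios of UVR over control, are shown beside that of *Lor*, which defines the spots, and that of *Krt77*, the gene with the lowest ratio there. Each runs from 250 bases before to 50 bases after the start of the gene in RefSeq's GRCm38.p6 annotation, 5′ to 3′ on the minus strand. They lie at chr3:92485832-92486131 for *Sprr1a*, chr3:92438730-92439029 for *Sprr1b*, chr3:92083093-92083392 for *Lor* and chr15:101869656-101869955 for *Krt77*. Capitals mark matches, on either strand, to TGANTCA and to TATAAA, the TATA box. TGANTCA is a loose form of the recognition sequence of the AP-1 transcription factors, which has C or G in the middle.
Sprr1a: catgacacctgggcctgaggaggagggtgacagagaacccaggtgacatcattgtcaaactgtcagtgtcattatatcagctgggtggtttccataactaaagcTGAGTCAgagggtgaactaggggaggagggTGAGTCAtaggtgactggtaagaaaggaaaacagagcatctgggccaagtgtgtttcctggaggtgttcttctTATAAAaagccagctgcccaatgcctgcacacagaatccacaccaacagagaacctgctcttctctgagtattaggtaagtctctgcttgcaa
Sprr1b: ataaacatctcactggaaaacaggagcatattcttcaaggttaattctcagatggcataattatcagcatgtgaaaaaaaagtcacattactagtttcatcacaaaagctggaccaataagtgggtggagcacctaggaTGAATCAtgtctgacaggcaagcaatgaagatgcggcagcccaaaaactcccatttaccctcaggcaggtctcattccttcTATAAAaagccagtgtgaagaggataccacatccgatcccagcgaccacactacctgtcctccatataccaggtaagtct
Lor: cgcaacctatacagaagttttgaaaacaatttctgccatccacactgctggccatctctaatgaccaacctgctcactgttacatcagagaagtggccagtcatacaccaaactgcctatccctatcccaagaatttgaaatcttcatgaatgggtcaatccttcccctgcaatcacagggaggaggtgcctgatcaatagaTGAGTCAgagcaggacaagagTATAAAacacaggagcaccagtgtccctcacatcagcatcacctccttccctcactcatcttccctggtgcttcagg
Krt77: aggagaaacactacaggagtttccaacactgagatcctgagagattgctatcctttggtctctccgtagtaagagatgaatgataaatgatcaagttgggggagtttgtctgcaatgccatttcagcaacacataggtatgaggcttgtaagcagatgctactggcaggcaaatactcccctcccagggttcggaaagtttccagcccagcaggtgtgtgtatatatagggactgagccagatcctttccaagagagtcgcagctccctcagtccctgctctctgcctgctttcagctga
*Sprr1a* holds 2 matches to TGANTCA and *Sprr1b* and *Lor* 1 each, all 3 hold 1 match to TATAAA, and the *Krt77* window holds neither. Among all 32817 promoter windows of this length, 7.81% hold TGANTCA and 13.6% hold TATAAA. The motifs do not overlap each other in these windows. The TGANTCA match of *Sprr1b* has A in the middle, so it lies outside the stricter AP-1 sequence. All these matches are descriptions of the letters and not binding sites.

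The 4 genes given as marks of these spots were each detected in all 4 sections. *Lor*, used by the rule, had 60243 counts per 1000000 UMIs (CPM) with 9-cis HPR, 44308 CPM with retinol, 58641 CPM in UVR skin and 89984 CPM in control skin. *Crct1*, a cysteine-rich gene of the epidermal differentiation complex, had 22017 CPM with 9-cis HPR, 25909 CPM with retinol, 29560 CPM in UVR skin and 13973 CPM in control skin. *Hrnr*, which encodes the filaggrin-type protein hornerin, was scarce, at 296 CPM with 9-cis HPR, 141 CPM with retinol, 120 CPM in UVR skin and 141 CPM in control skin, on 20 to 76 UMIs. *Cdsn*, which encodes corneodesmosin, the adhesion protein of corneodesmosomes, is described with the comparisons below. Because probes differ between genes, these levels are not set against one another. The rule does set *Lor* against *Krt5* plus *Krt14*, so its ratio depends on their probes and does not measure relative amounts of transcript.

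Spots differed in how far *Lor* exceeded the basal keratins. The ratio of *Lor* to *Krt5* plus *Krt14* UMIs had a median of 3.22 with 9-cis HPR, 1.91 with retinol, 1.58 in UVR skin and 3.94 in control skin. At least a 2-fold excess was reached by 42 of 53 spots with 9-cis HPR, 18 of 41 with retinol, 7 of 35 in UVR skin and 48 of 60 in control skin. UVR spots thus sat closest to the threshold. *Krt14*, one of the rule's own genes, had 8735 CPM with 9-cis HPR, 8120 CPM with retinol, 24932 CPM in UVR skin and 3074 CPM in control skin. Since a gene of the rule differed so much between sections, the numbers of cornified-rich spots are given as counts and not compared. They made up 5.39% of section spots with 9-cis HPR (exact 95% interval 4.06 to 6.99), 5.21% with retinol (3.76 to 7.0), 3.73% in UVR skin (2.61 to 5.15) and 12.9% in control skin (9.99 to 16.3). At the threshold, the lowest ratio inside was 1 and the highest outside 0.986, and the shallowest spot inside had 1041 UMIs, against 969 UMIs for the deepest outside. A further 170 spots met both expression criteria at fewer than 1000 UMIs, 61 of them in the 9-cis HPR section, 10 in the retinol section, 16 in the UVR section and 83 in the control section.

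**Figure D1:**
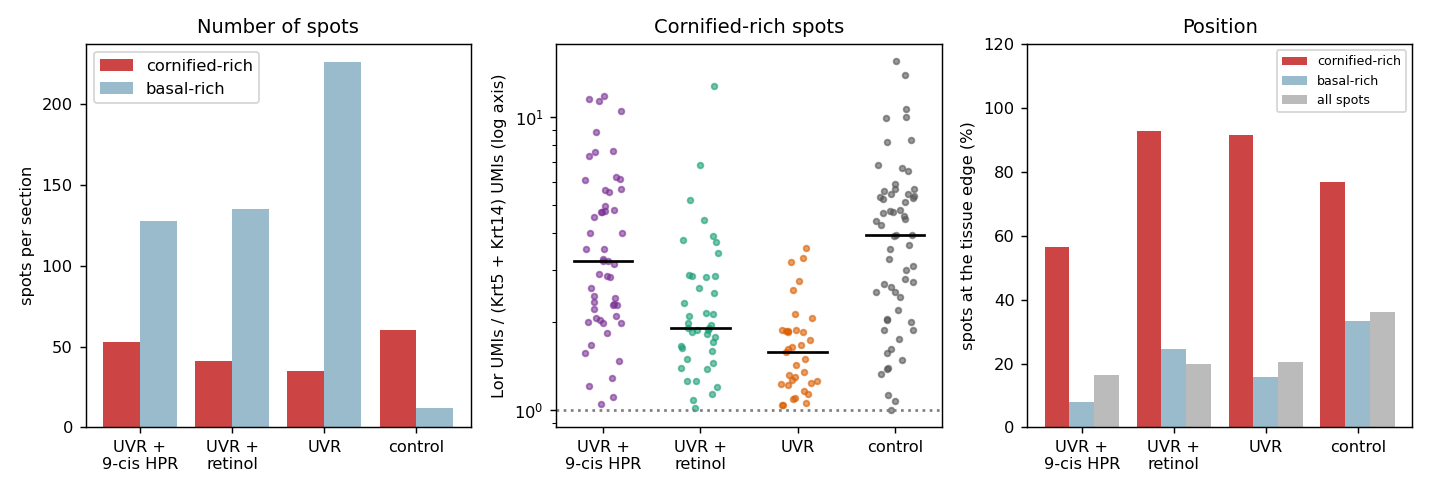
Left, number of cornified-rich and basal-rich spots per section. Middle, *Lor* UMIs over *Krt5* plus *Krt14* UMIs in each cornified-rich spot (points, log axis; black line, median), with the threshold of 1 dotted. Right, share of spots at the tissue edge. The bars for cornified-rich spots exceed those for basal-rich spots in all 4 sections, and the medians run from 1.58 in UVR skin to 3.94 in control skin.

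Position was not used by the rule. A spot was counted as an edge spot where fewer than 6 neighbouring spots lay over tissue. Of cornified-rich spots, 30 of 53 (56.6%) were edge spots with 9-cis HPR, 38 of 41 (92.7%) with retinol, 32 of 35 (91.4%) in UVR skin and 46 of 60 (76.7%) in control skin. Of basal-rich spots the share was 7.81% with 9-cis HPR, 24.4% with retinol, 15.9% in UVR skin and 33.3% in control skin, where only 12 spots were basal-rich. Cornified-rich spots lay at the edge more often in 4 of 4 sections, by 59.0 ± 15.4 percentage points (SD, n = 4), with an exact two-sided sign-flip permutation p = 0.125, the smallest that 4 sections allow. The difference ranged from 43.3 to 75.5 points.

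Cornified-rich spots lay next to one another. Contact with another cornified-rich spot was found for 52 of 53 with 9-cis HPR, 38 of 41 with retinol, 27 of 35 in UVR skin and 59 of 60 in control skin. Every cornified-rich spot of the 9-cis HPR, retinol and UVR sections touched a basal-rich spot, against 12 of 60 in control skin. The spots formed 6 contiguous groups with 9-cis HPR, 13 with retinol, 15 in UVR skin and 11 in control skin. The largest group held 18 spots with 9-cis HPR, 7 with retinol, 5 in UVR skin and 12 in control skin.

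Against basal-rich spots of the same section, cornified-rich spots were richer in genes of late differentiation. This split is the rule's own contrast, so its values are descriptions without a test. Of 2792 genes with 100 or more UMIs over both kinds of spot and all sections, 2209 had a ratio in each section. The others, with too few UMIs in some section to form one, were left out. Of the 2209, 13 were higher by 2-fold or more in all 4 sections (0.589%) and 49 were lower by as much in all 4 (2.22%). All 13 cornified envelope genes among the 2209 were above 1 in every section, beside 7.88% of all 2209. *Lor*, on which the rule splits the spots, is among these envelope genes and among the genes higher by 2-fold. Nothing is read from that excess. *Crct1* was 7.88-fold higher with 9-cis HPR, 5.44-fold with retinol, 4.01-fold in UVR skin and 3.01-fold in control skin. *Cdsn* was 6.02-fold higher with 9-cis HPR, 4.73-fold with retinol and 3.63-fold in UVR skin, and its ratio in control skin was 1.48 (0.935 to 2.45). *Flg*, which encodes filaggrin, was 5.24-fold higher with 9-cis HPR, 4.75-fold with retinol, 4.44-fold in UVR skin and 1.76-fold in control skin.

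Other leading genes had varied roles. *Nccrp1*, an abundant gene of stratified epithelia, was 4.03-fold higher in cornified-rich spots with 9-cis HPR, 3.63-fold with retinol, 3.22-fold in UVR skin and 2.08-fold in control skin. *Calm4*, a calcium-binding calmodulin relative of skin, was 3.31-fold higher with 9-cis HPR, 3.02-fold with retinol, 3.07-fold in UVR skin and 2.57-fold in control skin. *Casp14*, the caspase of cornification, was 3.90-fold higher with 9-cis HPR, 2.40-fold with retinol and 2.58-fold in UVR skin, and its control ratio of 2.03 (0.636 to 10.4) rested on 3 basal-rich UMIs. *Mapk13* (p38 delta kinase), *Ctsl* (the protease cathepsin L), *Anxa9*, *Ano8*, *Aif1l* and *Rnf225* also led the list. At the other end, *Mcm2*, a subunit of the replicative helicase, had a ratio of 0.309 with 9-cis HPR, 0.372 with retinol, 0.204 in UVR skin and 0.321 in control skin. All 6 cell division genes with a ratio in each section were below 1 in every section, as were 885 of all 2209 genes (40.1%). Nothing is read from that count. *Foxc1*, a forkhead transcription factor, had ratios of 0.248 with 9-cis HPR, 0.200 with retinol, 0.160 in UVR skin and 0.229 in control skin.

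**Figure D2:**
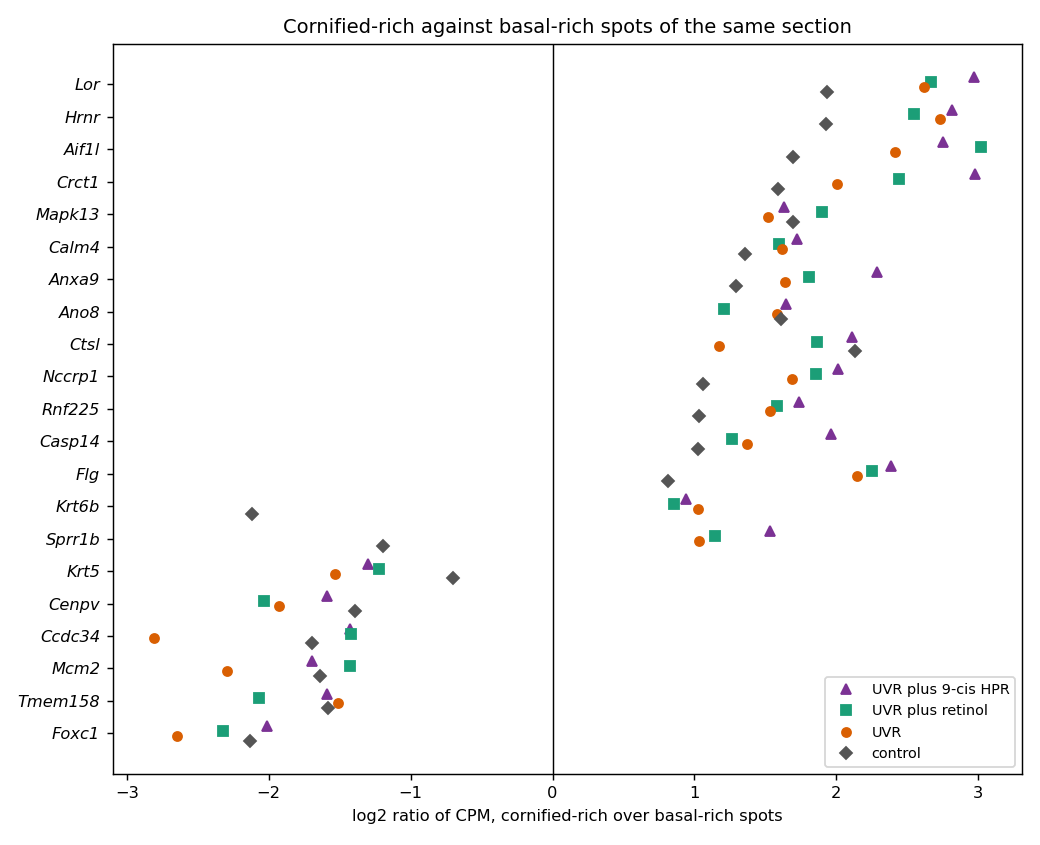
Log2 ratio of CPM in cornified-rich over basal-rich spots of the same section, for 21 genes and 4 sections. *Lor* and *Krt5* belong to the rule. *Krt6b* and *Sprr1b* lie left of 0 in control skin and right of 0 in the other 3 sections.

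Within sections, the share of *Lor* among a spot's UMIs ran with some genes more than others. Of 177 genes with 100 or more UMIs in every section, those whose smallest Spearman coefficient with *Lor* over the spots of a section was highest were *Rnf225*, *Crct1*, *Cdsn*, *Dmkn* and *Nccrp1*. For *Crct1* the coefficient was 0.78 with 9-cis HPR (53 spots), 0.39 with retinol (41 spots), 0.31 in UVR skin (35 spots) and 0.78 in control skin (60 spots). Many genes ran opposite to *Lor* in every section, so this is not particular to any of them. Among them were *Ptms*, *Pdia3* (coefficients from -0.60 to -0.32), *Anp32e* (-0.42 to -0.34), *Yy1* (-0.54 to -0.26) and *Jup* (-0.69 to -0.09). The spots of a section share a library, and *Lor* share also ran with depth, at -0.57 with 9-cis HPR and 0.24 in control skin, so these coefficients are descriptions.

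In UVR skin compared with control skin, cornified-rich spots held far more stress keratins and small proline-rich transcripts and far less of 2 suprabasal keratins. Of 541 genes with 100 or more UMIs over both sections, 193 (35.7%) were apart by 2-fold or more, the size used for all counts below. Of these, 94 were higher in UVR skin (17.4%) and 99 lower (18.3%). All 3 stress keratins that could be compared were higher. Spots hold mixed cells, so a change in the number of cells of a kind and one in transcripts per cell cannot be told apart. *Krt6b* had between 10089 and 56679 CPM in single UVR spots, with a median of 30086 CPM, against 0 to 1587 CPM and a median of 0 in control spots. No UVR spot overlapped a control spot. The spots of a section share a library and are not replicates, so this separation says nothing about the spread between animals. *Krt6b* is shown because its ratio was among the highest. How many of the 541 genes separated in this way is not given. Summed over spots, *Krt6b* reached 31292 CPM in UVR skin and 283 CPM in control skin, 110.7-fold higher (exact 95% counting interval 81.2 to 155). *Krt16* was 55.2-fold higher (39.1 to 80.9) and *Krt17* 7.45-fold higher (4.68 to 12.6).

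Both small proline-rich genes with enough UMIs, whose products crosslink into the envelope, were higher in UVR skin. *Sprr1b* ranged from 18648 to 83177 CPM over UVR spots, with a median of 49426 CPM, against 0 to 2795 CPM and a median of 604 CPM over control spots. These ranges did not overlap either, with the same limits: spots are not replicates, and *Sprr1b* too is shown for its high ratio. Its summed level was 50749 CPM in UVR skin and 728 CPM in control skin, a 69.7-fold difference (57.4 to 85.5). *Sprr1a* was 92.4-fold higher (44.7 to 230.3), on 1298 UMIs in irradiated spots, against 7 in control spots.

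The suprabasal keratins, which fill the cells of the spinous and granular layers, did not move as one list. Of 4 compared, 1 passed 2-fold upward and 2 downward. *Krt10* ranged up to 2996 CPM over UVR spots with a median of 1046 CPM, against 847 to 16481 CPM and a median of 6839 CPM over control spots. The ranges overlapped. Its summed level was 1183 CPM in UVR skin and 7485 CPM in control skin, 6.33-fold lower (5.59 to 7.17). *Krt77* had 0 UMIs in UVR skin, against 237 UMIs over 51 of 60 spots in control skin. Counting the 0 as 3 UMIs, it was at least 158.6-fold lower. *Krt78* was 6.64-fold higher (4.49 to 10.2), while *Krt1*, the partner of *Krt10*, had a ratio of 0.876 (0.673 to 1.15).

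Envelope genes split as well. Of 10 cornified envelope genes compared, 4 were higher in UVR skin by 2-fold or more and 1 was lower. The median log2 ratio of these genes was 0.77, beside -0.15 for all 541. With genes of 20 or more UMIs included, 16 envelope genes split evenly, 5 higher and 5 lower, and their median was -0.20, beside -0.24 for all 1799 genes. The lower ones then added were *Lce1a2*, *Lce1c*, *Lce1d* and *Lce1f*, late cornified envelope genes with 10 to 26 UMIs in UVR skin, against 26 to 29 in control skin. *Cdsn* had 6684 CPM in UVR skin and 1152 CPM in control skin, 5.80-fold higher (4.94 to 6.85). *Cnfn*, which encodes cornifelin, was 5.39-fold higher (2.91 to 11.1). *Ppl*, which encodes the envelope scaffold periplakin, was 2.95-fold higher (2.30 to 3.83), and *Crct1* 2.12-fold (2.01 to 2.22). *Krtdap*, a keratinocyte differentiation gene, was 2.58-fold lower (2.23 to 2.99). *Lor* had a ratio of 0.652 (0.637 to 0.667) and *Flg* one of 0.710 (0.594 to 0.850), both short of 2-fold.

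**Figure D3:**
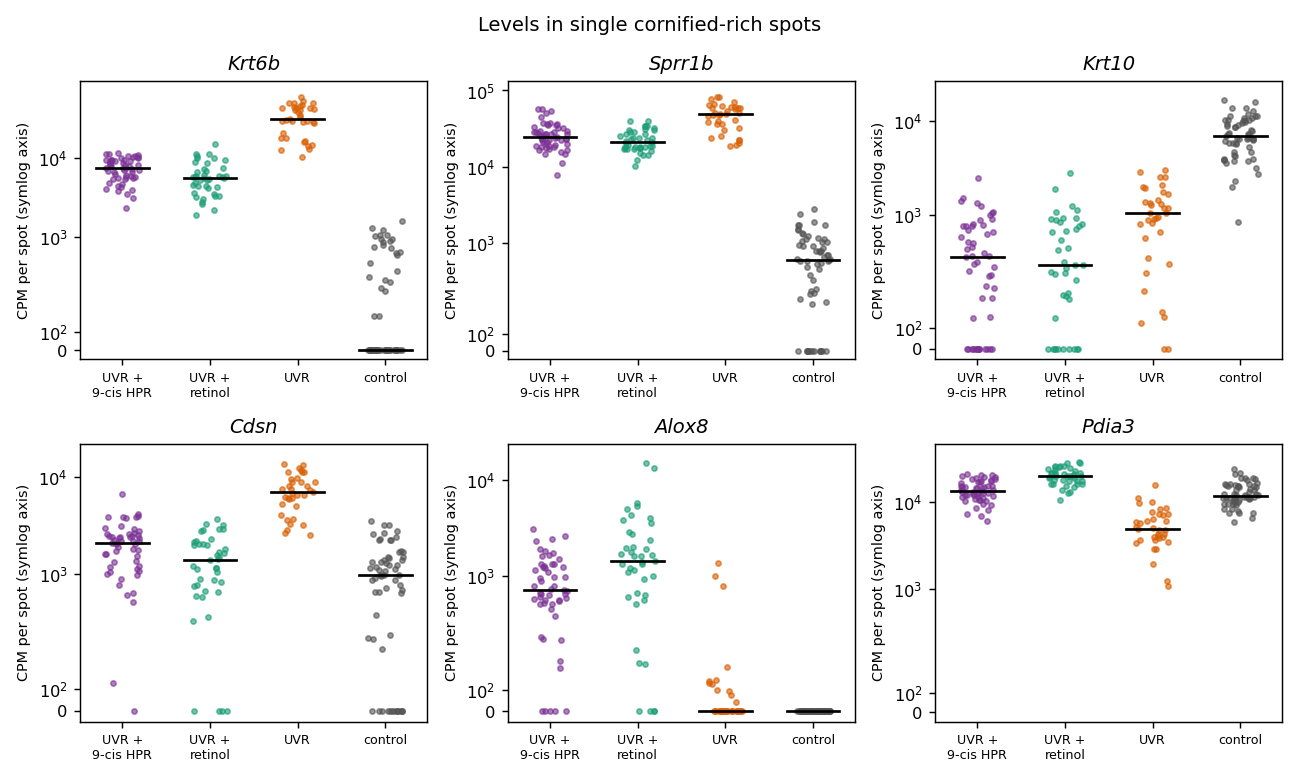
CPM of 6 genes in every cornified-rich spot (points) of the 4 sections, on a symmetric log axis that is linear below 500; the black line is the median. UVR spots lie above all control spots for *Krt6b* and *Sprr1b*, and all 60 control spots are at 0 for *Alox8*. The spots of a section are not replicates.

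Junction genes followed, with 4 of 9 higher by 2-fold or more in UVR skin and none lower by as much. *Gjb2*, which encodes the gap junction protein connexin 26, was 16.4-fold higher (7.42 to 45.3). *Dsg1b*, a desmosomal cadherin, was 5.90-fold higher (3.27 to 11.7), *Pkp3*, the desmosomal plaque gene plakophilin 3, 4.44-fold (2.93 to 7.02), and the connexin gene *Gja1* 2.14-fold (1.32 to 3.62). The copies *Dsg1a* and *Dsg1b* are closely alike, so how their counts divide is uncertain. *Dsp*, which encodes desmoplakin, had a ratio of 0.904 (0.652 to 1.26). *Jup*, which encodes plakoglobin, held 84739 CPM in UVR skin and 75694 CPM in control skin.

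Among keratinocyte transcription factors, *Hopx* was 3.41-fold higher in UVR skin (2.91 to 4.02), *Ovol1* 3.19-fold (2.13 to 4.93) and *Cebpb* 2.30-fold (2.01 to 2.64). *Gata3* was 2.73-fold lower (2.30 to 3.23). Of 4 crosslinking and calcium-binding genes, *Tgm1*, the membrane-bound transglutaminase, was 4.83-fold higher (3.92 to 6.0) and *Calml3* 3.35-fold higher (2.11 to 5.57). Of 3 retinoid genes, *Fabp5*, a fatty acid carrier that also binds retinoic acid, was 4.94-fold higher (4.19 to 5.85) and *Crabp2*, the retinoic acid carrier, 3.10-fold higher (2.46 to 3.94).

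Smaller lists gave a few further genes. Of 2 genes of the EGF receptor pathway, the ligand *Ereg* was 9.18-fold higher in UVR skin (4.33 to 23.3). Of 3 p53 and ultraviolet response genes, the p53 target *Phlda3* was 2.28-fold higher (1.54 to 3.48) and *Cdkn2b*, a cell cycle inhibitor, 4.86-fold lower (3.47 to 6.90). Of 4 antioxidant genes, 3 were at least 2-fold higher, namely *Gsto1*, *Txn1* and *Gpx1*. Among the largest ratios of all genes were also *Aqp3*, the water and glycerol channel of keratinocytes, 13.2-fold higher (9.93 to 17.8), and *Dhx34*, an RNA helicase, 12.3-fold higher (8.33 to 19.0). *2310046K23Rik* was 37.9-fold higher (12.8 to 185). Among the lowest were *Nek9*, a mitotic kinase, 7.02-fold lower (5.27 to 9.47), *Srcin1*, an inhibitor of Src signalling, 6.20-fold lower (5.13 to 7.53), and *Ptms*, which encodes parathymosin, 5.45-fold lower (5.13 to 5.78). *Extl1* was 4.85-fold lower (3.71 to 6.39), the lipid carrier gene *Apoe* 4.22-fold lower (3.55 to 5.03) and *Hsd17b10* 3.79-fold lower (2.84 to 5.11).

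Markers of other cells were scarce but differed between these sections. Fibroblast markers summed to 0.00211% of UMIs in UVR skin (2 of 10 detected) and 0.0368% in control skin (5 of 10 detected), with *Pdgfra* and *Lum* at 0 in both. Macrophage and dendritic markers held 0.00916% in UVR skin (4 of 13 detected) and 0.0975% in control skin (8 of 13 detected), with *Adgre1* and *Lyz2* at 0 in both. Sebaceous markers held 0.00387% in UVR skin (5 of 10 detected) and 0.0686% in control skin (9 of 10 detected). Skeletal muscle markers held 0.103% in UVR skin (9 of 11 detected) and 0.107% in control skin (10 of 11 detected). Plasma cell markers held 0.00282% in UVR skin (2 of 6 detected) and 0.0749% in control skin (3 of 6 detected), where 1 spot reached 4.27%. Their part in the differences above was not tested.

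Under retinol, cornified-rich spots of irradiated skin held less of 2 stress keratins, of both small proline-rich genes compared and of 5 of 10 junction genes than those of UVR skin, and more of *Alox8*. Of 569 genes compared, 115 (20.2%) were apart by 2-fold or more, 62 of them higher with retinol (10.9%) and 53 lower (9.31%). *Krt6b* ranged from 1924 to 14557 CPM over retinol spots, with a median of 5510 CPM, against 10089 to 56679 CPM and a median of 30086 CPM over UVR spots. The ranges overlapped only between 10089 and 14557 CPM. Summed, it had 5411 CPM with retinol and 31292 CPM in UVR skin, 5.78-fold lower (5.41 to 6.19). Of 3 stress keratins, *Krt16* was also lower, 4.34-fold (3.95 to 4.77), and *Krt17* had a ratio of 0.690 (0.553 to 0.856). Both small proline-rich genes were lower, *Sprr1a* 2.66-fold (2.35 to 3.02) and *Sprr1b* 2.25-fold (2.17 to 2.33). With sections read by the spot grid, *Krt6b* would be 27.1-fold and *Krt16* 16.8-fold higher with retinol than in UVR skin. Of 14 named genes 2-fold or more apart that could be followed, 4 stayed so in the same direction under that reading. Another 4 turned to 2-fold or more the other way.

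Of 10 cornified envelope genes, 5 were at least 2-fold lower with retinol and none higher. *Cdsn* had 1453 CPM with retinol and 6684 CPM in UVR skin, 4.60-fold lower (4.04 to 5.26). *Sbsn*, the suprabasin gene, was 2.74-fold lower (1.67 to 4.70), *Cnfn* 2.47-fold (1.64 to 3.82), *Ppl* 2.33-fold (1.90 to 2.88) and *Evpl*, the envoplakin gene, 2.01-fold (1.33 to 3.11). *Crct1* had a ratio of 0.876 (0.845 to 0.909). The 5 lower junction genes were the connexin genes *Gjb2* and *Gja1* and the desmosomal *Dsg1b*, *Dsg1a* and *Pkp3*, with *Dsg1a* 7.78-fold (4.10 to 16.6) and *Pkp3* 4.08-fold lower (2.84 to 6.05). *Dsp* had a ratio of 0.705 (0.489 to 1.00) and *Pkp1*, the plakophilin 1 gene, one of 0.504 (0.381 to 0.661). *Jup* had 96313 CPM with retinol and 84739 CPM in UVR skin, a ratio of 1.14 (1.11 to 1.16). Of 3 suprabasal keratins, *Krt78* was 7.47-fold lower (5.14 to 11.2) and *Krt10* 2.07-fold lower (1.65 to 2.61). *Eppk1*, the epiplakin gene, was 4.65-fold lower (3.12 to 7.17), *Tcf23*, a basic helix-loop-helix gene, 5.75-fold (3.66 to 9.51) and *Il1f5*, the IL-36 receptor antagonist gene, 3.38-fold (2.71 to 4.26). With sections read by the spot grid, the ratio would be 1.65 for *Cdsn*, 1.70 for *Pkp3* and 2.21 for *Il1f5*.

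**Figure D4:**
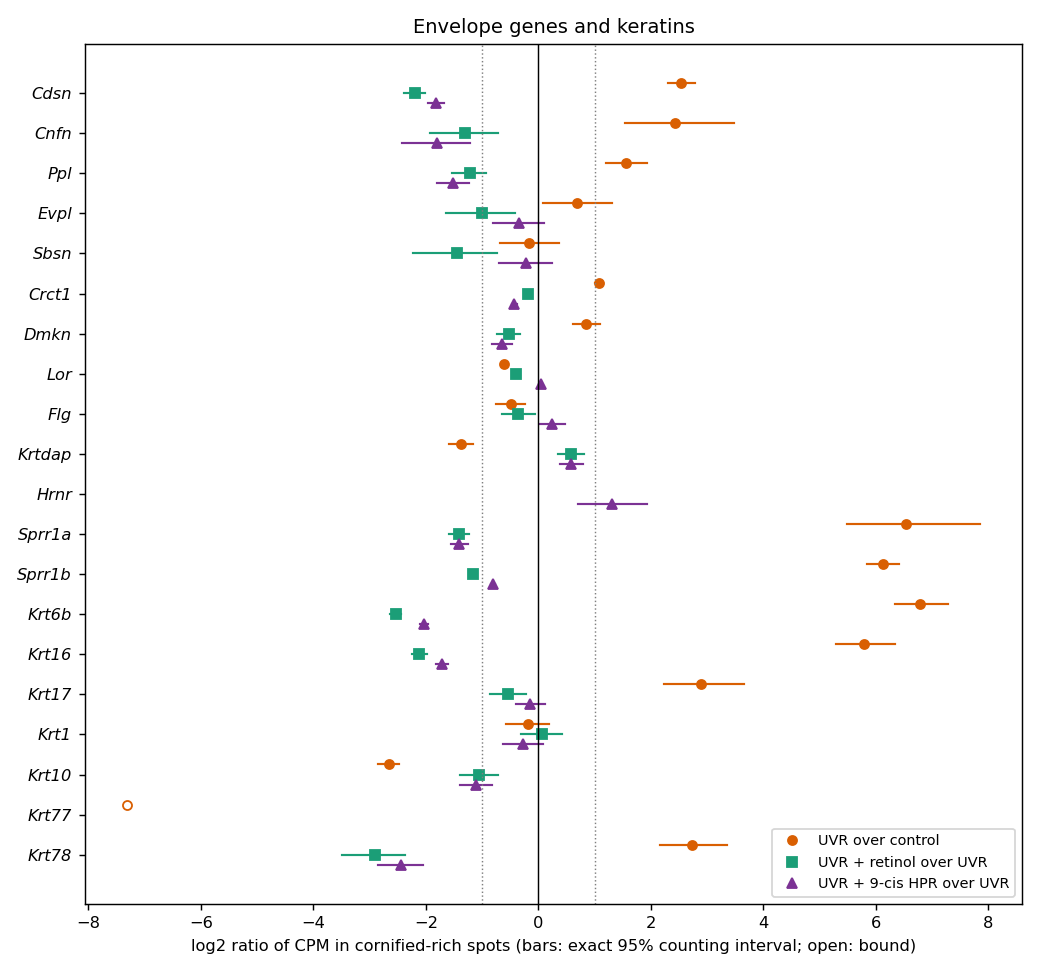
Log2 ratios of CPM in cornified-rich spots with exact 95% counting intervals, for envelope genes and keratins in 3 comparisons; dotted lines mark 2-fold, and a ratio is drawn where 100 or more UMIs were counted over both sections. *Krt77* is drawn open, labelled as a bound, with its 0 UMIs in UVR skin counted as 3. Ratios for *Krt6b*, *Krt16* and *Cdsn* lie right of 0 for UVR over control and left of 0 for both treatments over UVR, comparisons that share the UVR section.

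*Alox8*, which encodes an arachidonate lipoxygenase, had the highest ratio of retinol over UVR. It was found in 37 of 41 retinol spots, with a median of 1415 CPM and a highest value of 14962 CPM, against 12 of 35 UVR spots with a median of 0 and a highest value of 1361 CPM. The ranges overlapped. Summed, it had 1809 CPM with retinol and 134 CPM in UVR skin, 13.5-fold higher (9.64 to 19.5), and no UMI in the 60 control spots, a level below the 21.2 CPM that 3 UMIs would give there. *Srcin1* had 3636 CPM with retinol and 511 CPM in UVR skin, 7.12-fold higher (5.94 to 8.59), beside 3166 CPM in control skin. With sections read by the spot grid, the ratio of *Srcin1* would be 0.868. *Smox*, the spermine oxidase gene, was 4.24-fold higher (3.39 to 5.34).

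Other genes with high ratios had varied roles. *Pdia3*, a protein disulfide isomerase of the endoplasmic reticulum, ranged from 10432 to 29022 CPM over retinol spots, with a median of 19892 CPM, against 1092 to 15526 CPM and a median of 4908 CPM over UVR spots. Summed, it was 3.54-fold higher (3.34 to 3.75), a ratio that would be 1.19 with sections read by the spot grid. Under that reading the ratio of *Paxbp1*, next below, would be 1.09. *Sqstm1*, the autophagy receptor p62, was 3.21-fold higher (2.40 to 4.32), *Paxbp1* 3.50-fold (2.71 to 4.56), and *Ccdc71l* and *Tnfaip2* each 3.12-fold, with intervals of 2.68 to 3.63 and 2.84 to 3.43. The transcription factor gene *Gata3* was 2.74-fold higher (2.33 to 3.23). Of 4 retinoid genes none reached 2-fold. The ratio was 1.97 (1.66 to 2.34) for the retinoic acid receptor gene *Rarg* and 1.42 (0.961 to 2.09) for *Dgat1*. It was 0.947 (0.872 to 1.03) for *Fabp5* and 0.786 (0.676 to 0.913) for *Crabp2*.

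Cornified-rich spots with 9-cis HPR also held less of 2 of the 3 stress keratins compared and less *Cdsn* than those of UVR skin. They held more *Alox8*. Fewer genes passed 2-fold than with retinol at the main settings. Of 628 genes compared, 80 (12.7%) were apart by 2-fold or more, 35 of them higher (5.57%) and 45 lower (7.17%). With *Lor* at least 2 times *Krt5* plus *Krt14*, the share was 18.4% both here, of 266 genes, and for retinol over UVR, of 114 genes. The comparison shares the UVR section with both preceding ones. *Krt6b* ranged from 2362 to 11339 CPM over 9-cis HPR spots, with a median of 7368 CPM, and its summed level was 7669 CPM with 9-cis HPR and 31292 CPM in UVR skin, 4.08-fold lower (3.89 to 4.29). *Krt16* was 3.29-fold lower (3.06 to 3.53), and *Krt17* had a ratio of 0.907 (0.759 to 1.08). *Sprr1a* was 2.64-fold lower (2.37 to 2.95) and *Sprr1b* 1.75-fold lower (1.70 to 1.80). With sections read by the spot grid, *Krt6b* would be 19.1-fold and *Krt16* 12.7-fold higher with 9-cis HPR than in UVR skin. Of 12 named genes 2-fold or more apart that could be followed, 3 stayed so in the same direction under that reading. A further 4 turned to 2-fold or more the other way.

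Of 11 cornified envelope genes, 3 were at least 2-fold lower with 9-cis HPR and 1 higher. *Cdsn* had 1900 CPM with 9-cis HPR and 6684 CPM in UVR skin, 3.52-fold lower (3.18 to 3.89). *Cnfn* was 3.47-fold lower (2.32 to 5.34) and *Ppl* 2.85-fold (2.35 to 3.48). *Hrnr* was 2.47-fold higher (1.63 to 3.82), and one spot of the 9-cis HPR section reached 2938 CPM against a median of 253 CPM. *Lor*, with a ratio of 1.03 (1.01 to 1.05), hardly differed. Of 11 junction genes, 5 were at least 2-fold lower, among them *Dsg1a* 4.19-fold (2.75 to 6.61) and *Gja1* 3.54-fold (2.22 to 5.87). *Krt78* was 5.43-fold lower (4.12 to 7.26) and *Krt10* 2.16-fold lower (1.77 to 2.64). *Krt14*, used by the rule, was 2.85-fold lower (2.72 to 2.99), a value that the choice of spots also bears on. With sections read by the spot grid, the ratio would be 1.26 for *Cdsn* and 2.64 for *Krt14*.

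Genes higher with 9-cis HPR included the lipoxygenase gene again. *Alox8* was found in 48 of 53 spots with a median of 719 CPM, and its summed level was 860 CPM with 9-cis HPR and 134 CPM in UVR skin, 6.43-fold higher (4.54 to 9.33). *Srcin1* was 5.38-fold higher (4.50 to 6.48), a ratio that would be 1.15 with sections read by the spot grid, where that of *Paxbp1* would be 1.05 and that of *Pdia3* 1.72. *Dgat1*, an enzyme of triglyceride synthesis that can also esterify retinol, was 2.97-fold higher (2.19 to 4.06) and the only one of 4 retinoid genes past 2-fold. *Apoe* was 2.46-fold higher (2.07 to 2.93), *Pdia3* 2.45-fold (2.32 to 2.60), *Paxbp1* 3.62-fold (2.84 to 4.65), *Pxdc1* 2.67-fold (2.17 to 3.29) and *Ccdc71l* 2.47-fold (2.13 to 2.87). *Aqp5*, a water channel gene, was 2.86-fold lower (2.07 to 4.01), *Eppk1* 3.15-fold (2.35 to 4.27) and *Lsm4*, which acts in RNA splicing, 3.29-fold lower (2.41 to 4.56). *Cdkn2b* was 3.10-fold higher (2.23 to 4.37) and *Phlda3* 2.04-fold lower (1.51 to 2.79). *Gata3* had a ratio of 1.96 (1.67 to 2.30), short of 2-fold.

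**Figure D5:**
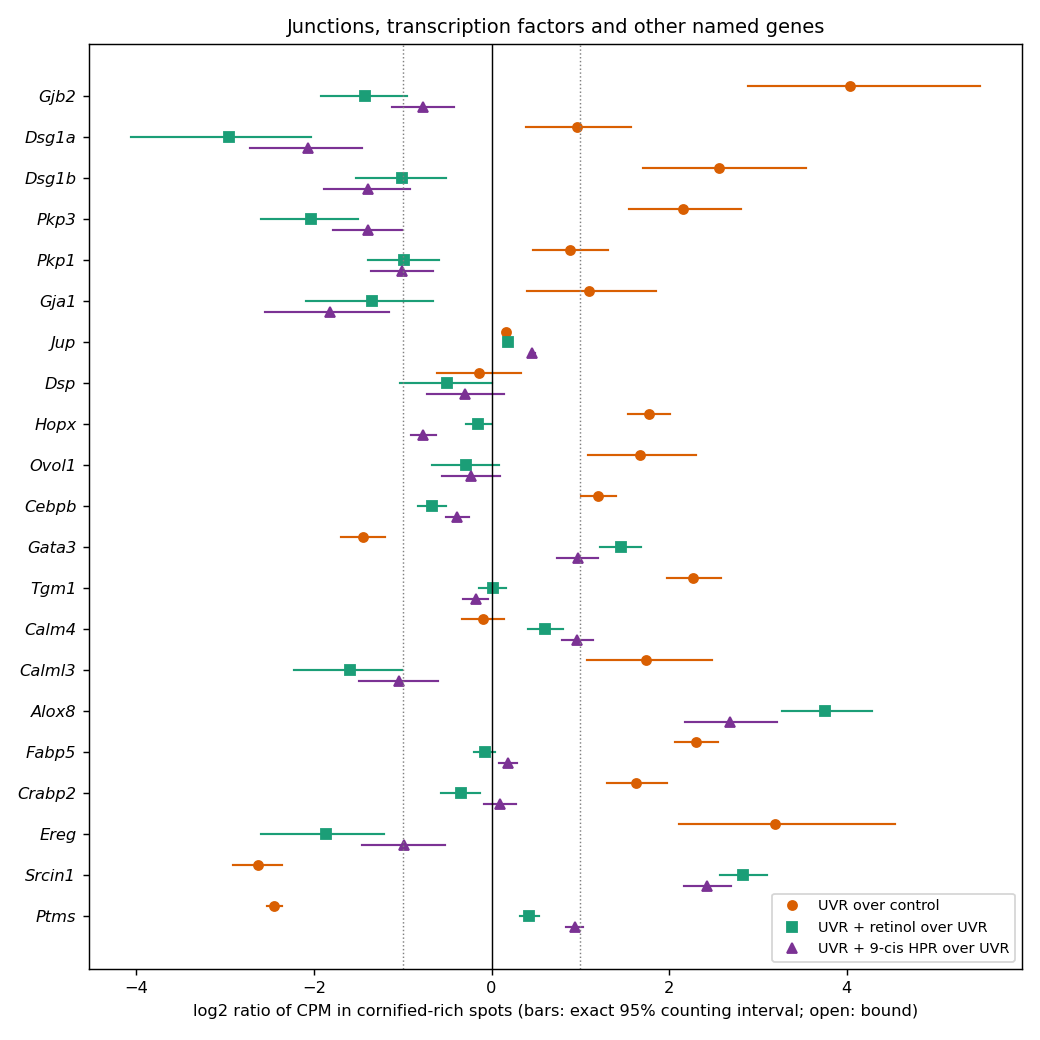
Log2 ratios of CPM in cornified-rich spots with exact 95% counting intervals, for junction genes, transcription factors and other named genes in 3 comparisons; dotted lines mark 2-fold and only ratios with 100 or more UMIs over both sections are drawn. *Srcin1* lies left of 0 for UVR over control and right of 0 for both treatments over UVR, comparisons that share the UVR section.

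Markers of other cells also differed between treated and UVR sections. Skeletal muscle markers held 0.0331% of UMIs with 9-cis HPR (8 of 11 detected), 0.0288% with retinol (8 of 11) and 0.103% in UVR skin (9 of 11), and the muscle genes *Myh4* and *Ckm* were both lower by 2-fold or more in each treated section. Macrophage and dendritic markers held 0.0479% with 9-cis HPR (8 of 13 detected), 0.0435% with retinol (6 of 13) and 0.00916% in UVR skin (4 of 13). Fibroblast markers held 0.0163% with 9-cis HPR, 0.0124% with retinol and 0.00211% in UVR skin, with *Dcn* and *Lum* at 0 in each. Their part in the differences was not tested. All 6 mast cell markers were at 0 in the 4 sections. No cornified-rich spot reached 1% of fibroblast and muscle markers together.

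Few genes passed 2-fold between the treated sections, whose doses differ. Of 539 genes compared, 11 (2.04%) were apart by 2-fold or more, 3 of them higher with 9-cis HPR (0.557%) and 8 lower (1.48%). *Dgat1* had 627 CPM with 9-cis HPR and 300 CPM with retinol, 2.09-fold higher (1.52 to 2.91), *Hrnr* was 2.09-fold higher (1.32 to 3.43), and *Lgals7*, the galectin 7 gene of stratified epithelia, 2.03-fold higher (1.65 to 2.51). *Smox* had 619 CPM with 9-cis HPR and 1628 CPM with retinol, 2.63-fold lower (2.16 to 3.21), and *Alox8* was 2.10-fold lower (1.77 to 2.51). None of the stress keratins, small proline-rich, suprabasal keratin, junction or transcription factor genes compared reached 2-fold. *Krt6b* had a ratio of 1.42 (1.31 to 1.53) and *Sprr1b* one of 1.29 (1.24 to 1.34), intervals that cover counting error only.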

How the data were processed

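Spatial transcriptomes of 4 skin sections on 2 capture areas were used. The values are the UMI counts of each gene in each spot as deposited by the authors, not normalized. The submitters' processing notes name Space Ranger 2.0.0, Seurat 4.1.0 and the mouse build mm10. Per the labels' protocols, the kit for fixed tissue was used on fresh-frozen sections. Each matrix has 19465 rows and 19454 gene symbols; rows of one symbol were summed.

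UMIs of a section's cornified-rich spots were added up and scaled by their sum (CPM). Ratios of CPM, with no pseudocount, were formed where a gene had 100 or more UMIs over both sections. Exact (Clopper-Pearson) 95% intervals come from the binomial split of UMIs; UMIs in a spot are not independent samples, so they cover counting error only. A group at 0 was set to 3 counts. The size rule was 2-fold. No p-value was computed between groups. Summed UMIs over a section's cornified-rich spots ranged from 141491 to 283967, and 3 counts were worth 10.6 to 21.2 CPM.

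Members and lists were chosen with earlier results of these data known. Of 460 listed genes in 15 outcome lists and 14 marker lists, 436 were measured. The named genes were the 8 highest and 8 lowest ratios of at least 2-fold with 200 or more UMIs and one direction on both image sides, the 12 highest and 8 lowest genes over basal-rich spots, the 4 markers, the rule's genes and list members; *Jup* was added after its values were seen. Python 3.11.15, numpy 2.4.6, scipy 1.17.1, pandas 2.3.3 and matplotlib 3.10.9 were used, and the scripts were tested on simulated data. Alternatives covered the spot and gene minimum, the *Lor* threshold, scaling, spot weighting, equal depth, marker-rich spots and the reading of the sections. Only 1 spot barcode was shared by cornified-rich spots of both areas. Promoters were joined by symbol. One listed gene is not reported here.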

Additional observations from a re-analysis of the deposited data

Results flagged for a closer look

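Some genes ran in opposite directions in different sections when cornified-rich spots were set against basal-rich spots, 2-fold or more each way. This was so for 11 of 1881 genes with 200 or more UMIs, 6 of them named here, and the difference between sections was not tested. The control ratios rest on 12 basal-rich spots. *Krt6b* had a ratio of 2.04 in UVR skin and 0.231 in control skin. *Sprr1b* had 2.90 with 9-cis HPR and 0.436 in control skin. *Tnfaip2* had 3.14 with 9-cis HPR and 0.455 in control skin. *Cst6*, a cysteine protease inhibitor gene of the skin barrier, had 2.54 with 9-cis HPR and 0.419 in control skin, on 15 to 33 UMIs per side. *Acta1*, a skeletal muscle actin gene, had 2.08 with retinol and 0.317 in control skin. *Igha*, the immunoglobulin A heavy chain gene, had 0.284 in UVR skin and 5.84 in control skin; 1 control spot held 39 of its 92 UMIs, and without that spot, an alternative chosen after seeing the data, the control ratio was 3.39.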

How the results depend on the processing

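With the sections read by image row, no named gene or list median of 2-fold or more changed direction under the other alternatives. Smaller ones did: 3 of 733 named-gene values, all of *Lor* for 9-cis HPR over UVR (log2 0.04 against -0.08 centred on the median gene, -0.01 with 2000 UMIs per spot and -0.26 with *Lor* at least 2 times *Krt5* plus *Krt14*), and 17 of 397 list medians. At 20 UMIs per gene the envelope median for UVR over control was -0.20 in place of 0.77, and that of skeletal muscle markers -0.79 in place of 0.38. Of the gene values, 650 gene values stayed within their counting interval and 84 left it. Counts of genes at least 2-fold apart were 193 for UVR over control, 115 for retinol over UVR, 80 for 9-cis HPR over UVR, 11 for 9-cis HPR over retinol and 62 for cornified-rich over basal-rich. In that order, with *Lor* at least 2 times *Krt5* plus *Krt14* they were 99, 21, 49, 7 and 35, with 18 retinol spots and 7 UVR spots left; the split was then 33 higher and 66 lower for UVR over control, in place of 94 and 99, 14 and 7 for retinol over UVR, in place of 62 and 53, and 39 and 10 for 9-cis HPR over UVR, in place of 35 and 45. A gene minimum of 20 UMIs gave 731, 439, 354 and 159 for the 4 comparisons of sections, and one of 500 UMIs gave 53, 21, 17 and 1, and 26 for cornified-rich over basal-rich. Spots weighted alike gave 110 for the last. Equal total UMIs, which leaves fewer genes to compare, gave 72 for retinol over UVR, 5 for 9-cis HPR over retinol and 9 for cornified-rich over basal-rich. A minimum of 2000 UMIs per spot left 28 control spots. Centring on the median gene gave, higher and lower, 110 and 75 for UVR over control, 37 and 68 for retinol over UVR, 26 and 61 for 9-cis HPR over UVR, 5 and 7 for 9-cis HPR over retinol and 38 and 9 for cornified-rich over basal-rich; scaling without the rule's genes gave 18 and 38 for the last. That centring shifts log2 values by the median gene, which stood at -0.15 for UVR over control, 0.17 for retinol over UVR, 0.12 for 9-cis HPR over UVR and -0.07 for 9-cis HPR over retinol. Reading the spot grid instead turns each within-area ratio round. Across areas it gave 68 higher and 49 lower of 517 for retinol over UVR and 64 and 50 of 446 for 9-cis HPR over UVR; the log2 ratio of *Krt6b* was then 4.76 and 4.26, in place of -2.53 and -2.03, that of *Cdsn* 0.72 and 0.34, in place of -2.20 and -1.82, and that of *Alox8* 5.34 and 6.42, in place of 3.76 and 2.69. Named genes 2-fold or more apart could be followed only with 100 or more UMIs under both readings. That left out *Krt78*, *Tcf23* and *Eppk1* for retinol, and *Krt78*, *Eppk1*, *Dgat1*, *Aqp5* and *Hrnr* for 9-cis HPR. Of the rest, 4 of 14 for retinol over UVR and 3 of 12 for 9-cis HPR over UVR stayed so in the same direction. In each comparison 4 turned to 2-fold or more the other way. The causes of these shifts were not tested. No paired analysis was possible because each group is 1 section and the labels give no replicate numbers. Depth limits genes under 100 UMIs, above all in control skin.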

Other observations

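Some members of the lists were not named above, and those given here were picked after their values were seen. *Klk6*, a kallikrein protease of shedding, was 10.0-fold higher in UVR skin than in control skin (exact 95% counting interval 4.97 to 23.6), the only one of 3 desquamation genes past 2-fold, and had 693 CPM with 9-cis HPR, 554 CPM with retinol, 567 CPM in UVR skin and 56.5 CPM in control skin. *Mt1*, a metallothionein gene, was 2.11-fold lower with 9-cis HPR than in UVR skin (1.79 to 2.49), and its ratio of retinol over UVR was 0.803 (0.686 to 0.938). *Hbegf*, a ligand of the EGF receptor, had 21 UMIs with 9-cis HPR, 44 with retinol, 23 in UVR skin and 0 in control skin, fewer than the 100 that a comparison needed.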
